A study of Drosophila montana and Drosophila virilis with 24 samples.

Results

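The stress kinase genes p38a, p38b, Mekk1 and bsk and the immune adaptor gene imd are described here. They were found by gene name on a custom Agilent array and make up 5 of its 218 named genes and 18 of its 925 probe pairs. The arrays measured whole-body RNA of mature females of Drosophila montana and D. virilis, with 1 array for each pool of 10 flies and 3 pools in each of 8 groups, 24 arrays in all. Every fly was 20 days old, lived under 22 h of light and 2 h of darkness and was collected 5 to 6 h from lights on. Acclimated flies of both species had 14 days of control conditions followed by 6 days at 5°C. Hardened flies of both species were held at 0°C for 1 h. Recovering flies, of D. montana alone, were sampled 1 h or 15 min after 16 h at -6°C. Control flies of each species stayed at 19°C. No strain, allele or other agent is named in the labels. Fewer cells of a type and less RNA per cell cannot be told apart in whole flies, and each value averages over the 10 pooled flies.

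The roles of these genes are known from D. melanogaster. The p38 and JNK pathways are relays of protein kinases that pass on signals of stress such as heat, osmotic shock and infection: a kinase at the top phosphorylates an intermediate kinase, which phosphorylates the mitogen-activated protein (MAP) kinase at the end. Mekk1 is a kinase at the top that acts towards p38, p38a and p38b are MAP kinases of the p38 kind, and bsk (basket) encodes the JNK of the fly. The imd gene (immune deficiency) encodes the adaptor that binds receptors of bacterial peptidoglycan and leads to the NF-kappaB factor Relish, which switches on antimicrobial peptide genes, with a side branch to JNK. The kinases are regulated largely by phosphorylation and the Imd protein also by cleavage, and the arrays measured transcripts only.

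On the array, p38a stands under its older name Mpk2 and has 1 probe pair, whereas p38b, bsk and imd have 4 pairs each from 1 fragment, and Mekk1 has 5 pairs from 2 fragments. Of the 5 symbols, 4 match the D. montana reference annotation and p38a does not. A pair reads both orientations of the same stretch, and the brighter orientation was used. It was well above background on all 24 arrays for all 18 pairs, and it exceeded the other orientation by 3.13 to 7.54 log2 units. Probes of 1 fragment share sequence and are not independent measurements of the gene. Levels below are log2 processed signals minus the array's 75th percentile of probes, so a level of 0 is that percentile. They are not compared between genes or between species, because probes can match their targets unequally.

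Changes are given as log2 differences ± SE over 3 arrays a group. P-values are limma's, with Benjamini-Hochberg adjustment over the genes of a comparison, and 0.05 is the threshold. The SE pools the spread over all arrays of a species. On each array 72.2% to 83.1% of spots stood well above background. The 75th percentile of the signal was 413 to 678 units on the 6 recovery arrays and 658 to 883 units on the other arrays. Every slide held 1 array of each group, so differences can also be read within a slide. Of marker genes for tissues, 10 of 10 for the eye, 3 of 5 for nerve and 2 of 6 for muscle are among the genes measured, and those listed for fat body and for the female and male germline are not among the genes used here.

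Across all 7 comparisons within a species, the members passed the threshold in 3 of 35 tests, beside 11.1% of the 1492 tests over all genes: p38a and imd were lower after acclimation in D. montana, and imd was lower after acclimation in D. virilis. No member passed in limma after hardening or during recovery, where 1 value had an unadjusted p under 0.05, imd in hardened D. virilis. p38b, Mekk1 and bsk did not pass in any of the 7 comparisons.

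**Figure D1:**
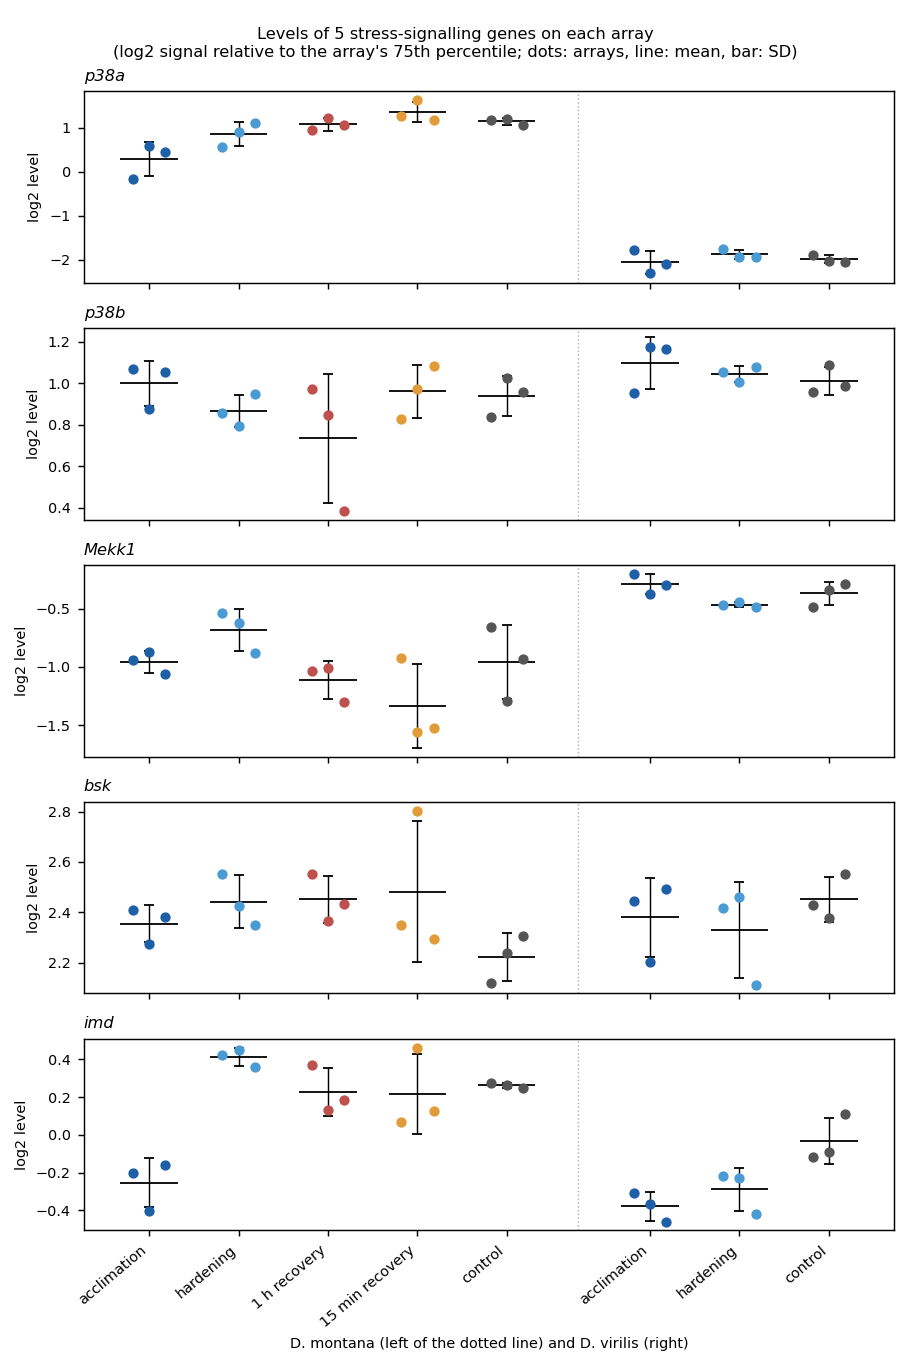
Level of each gene on each of the 24 arrays (log2 signal relative to the array's 75th percentile, vertical axis) by species and group, with the group mean and SD. The 3 acclimated D. montana arrays lie below all 3 controls for p38a and for imd, and the 3 acclimated D. virilis arrays lie below all 3 controls for imd.

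The MAP kinase gene p38a was 1.81-fold lower in acclimated D. montana than in controls. Its levels were -0.15, 0.59 and 0.44 in acclimated flies, against 1.18, 1.20 and 1.06 in controls. Every acclimated array lay below every control array, as for 26.2% of genes, and the acclimated arrays were the more scattered, with a mean of 0.29 ± 0.39 (SD, n = 3) against 1.15 ± 0.08 in controls (SD, n = 3). The change was -0.85 ± 0.19 (95% confidence interval -1.25 to -0.46, limma adjusted p = 0.00273). Of all 214 genes tested in this comparison, 26.6% passed the threshold and 16.8% passed as lower, and p38a ranked 24 by p-value. Within slides 1, 2 and 3 the difference was -1.34, -0.47 and -0.76, so it was negative in each and varied in size. Leaving out any single acclimated or control array kept the call, with changes from -1.0 to -0.63. The call was lost with normexp background correction (-0.81, adjusted p = 0.0755). A single probe carries this result. The dimmer orientation of that pair differed by -1.58 in the same direction but was well above background on only 13 of 24 arrays. In D. virilis this dimmer orientation differed by -0.56 after acclimation and by -0.31 after hardening. The brighter orientation there changed by -0.07 and 0.11.

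In the other groups of D. montana the level of p38a did not pass the test against controls. Hardened flies had 0.57, 0.90 and 1.1, flies after 1 h of recovery had 0.94, 1.22 and 1.07, and flies after 15 min of recovery had 1.27, 1.63 and 1.18. Each of these groups overlapped the controls. The changes were -0.29 ± 0.19 after hardening (limma adjusted p = 0.6), -0.07 ± 0.19 at 1 h (adjusted p = 0.846) and 0.21 ± 0.19 at 15 min (adjusted p = 0.474). In the order of group means, 15 min of recovery came first, followed by control, 1 h of recovery, hardening and acclimation, and neighbours in this order overlapped throughout. The lowest hardened array (0.57) lay just under the highest acclimated array (0.59).

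In D. virilis the level of p38a did not pass the test against controls. Acclimated flies had -1.78, -2.30 and -2.10, against -1.89, -2.02 and -2.05 in controls, and the groups overlapped. The change was -0.07 ± 0.12 (95% confidence interval -0.35 to 0.20, limma adjusted p = 0.696). It ran from -0.34 to -0.07 under the 4 other scalings and from -0.21 to 0.05 without single arrays, and passed in none of these. Hardened flies had -1.75, -1.93 and -1.94, also overlapping the controls (0.11 ± 0.12, adjusted p = 0.803). The probe gave 610 to 1905 signal units on the D. montana arrays and 141 to 230 units on the D. virilis arrays, and whether a dimmer probe dampens the change in D. virilis was not tested.

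The acclimation change of p38a was tested for a difference between the species. It was lower in D. montana by 0.78 log2 units than in D. virilis (-0.78 ± 0.24, limma interaction over 24 arrays, adjusted p = 0.0315). Of 210 genes 12.4% passed this test, and p38a had the largest p-value of the 26 that did. The within-slide values were -1.45, -0.19 and -0.71. The call did not hold without any of 7 single arrays out of 12: acclimated D. montana replicate 1 (-0.56, adjusted p = 0.105), D. montana control replicates 1 (adjusted p = 0.0646) and 2 (0.0837), acclimated D. virilis replicates 1 (0.122) and 3 (0.0563), and D. virilis control replicates 2 (0.0645) and 3 (0.081). It was also lost with spike-in scaling (-0.72, adjusted p = 0.269) and with normexp correction (-0.47, adjusted p = 0.862).

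The second p38 gene, p38b, did not pass the test in any comparison. In D. montana its levels were 1.07, 0.88 and 1.06 after acclimation, against 0.84, 1.03 and 0.96 in controls, and the groups overlapped (0.06 ± 0.14, 95% confidence interval -0.25 to 0.37, limma adjusted p = 0.825). Hardened flies had 0.86, 0.79 and 0.95, flies after 1 h of recovery 0.97, 0.85 and 0.38, and flies after 15 min of recovery 0.83, 0.97 and 1.08. The value of 0.38 was the lowest of the 15 D. montana arrays. The changes were -0.07 ± 0.14 after hardening (limma adjusted p = 0.825), -0.21 ± 0.14 at 1 h (adjusted p = 0.49) and 0.02 ± 0.14 at 15 min (adjusted p = 0.938), and each group overlapped the controls. In D. virilis the levels were 0.95, 1.17 and 1.16 after acclimation and 1.05, 1.00 and 1.08 after hardening, against 0.96, 1.09 and 0.99 in controls. These groups overlapped too, with changes of 0.09 ± 0.08 after acclimation (adjusted p = 0.468) and 0.03 ± 0.08 after hardening (adjusted p = 0.91).

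The difference between both p38 genes can be read on the same array, free of the scaling between arrays but not of the background correction. The log2 ratio of p38a over p38b averaged -0.71 ± 0.48 in acclimated D. montana and 0.21 ± 0.13 in controls (SD, n = 3 each). Acclimated arrays ran from -1.22 to -0.28 and control arrays from 0.10 to 0.35, without overlap, whereas the hardened and both recovery groups overlapped the controls. In D. virilis the ratio was -3.16 ± 0.38 after acclimation and -3.0 ± 0.13 in controls, with overlap. The ratio describes the pair within an array and gives no relative abundance, since the probes differ. It was not tested, and the share of other gene ratios that separate these groups was not computed.

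**Figure D2:**
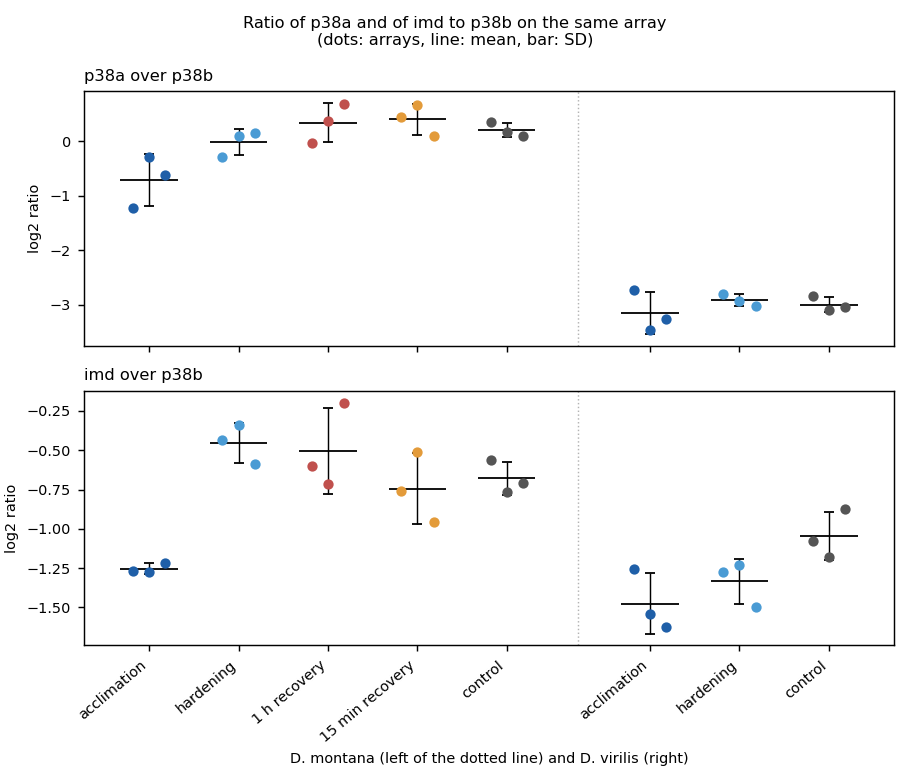
Log2 ratio of p38a over p38b (top) and of imd over p38b (bottom) on each array, with group mean and SD. In D. montana the acclimated arrays lie below the controls in both panels, and in D. virilis they do so only for imd.

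The adaptor gene imd was lower after acclimation in both species. In D. montana its levels were -0.20, -0.40 and -0.16 in acclimated flies, against 0.28, 0.26 and 0.25 in controls. These acclimated arrays lay below all 12 other D. montana arrays, of which the lowest was at 0.07. For 26.2% of genes the acclimated arrays lay below all controls, and the share below all 12 arrays was not computed. The means were -0.25 ± 0.13 and 0.26 ± 0.01 (SD, n = 3 each), and the change was -0.52 ± 0.13, or 1.43-fold lower (95% confidence interval -0.78 to -0.25, limma adjusted p = 0.00636, rank 29 by p-value against the 26.6% called). The within-slide differences were -0.48, -0.65 and -0.42. Leaving out single arrays gave -0.56 to -0.44 and kept the call each time. It was lost with spike-in scaling (-0.45, adjusted p = 0.184) and with normexp correction (-0.48, adjusted p = 0.0508).

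In D. virilis imd had -0.31, -0.37 and -0.46 in acclimated flies, against -0.12, -0.09 and 0.11 in controls. The groups did not overlap, as for 31.3% of genes in that direction. The change was -0.35 ± 0.09, or 1.27-fold lower (95% confidence interval -0.55 to -0.14, limma adjusted p = 0.0138). Here 39.3% of the 211 genes tested passed and 24.6% passed as lower, and imd ranked 56 by p-value. Within slides the difference was -0.19, -0.28 and -0.57. The call was lost without acclimated replicate 3 (-0.31, adjusted p = 0.0568), without control replicate 3 (-0.28, adjusted p = 0.0593), with spike-in scaling (adjusted p = 0.189) and with normexp correction (adjusted p = 0.136). The acclimation changes of the species were not shown to differ for imd (D. montana minus D. virilis -0.17 ± 0.16, 95% confidence interval -0.49 to 0.15, adjusted p = 0.65).

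All 4 imd probes fell after acclimation in each species when probes were tested singly. In D. montana they changed by -0.59 to -0.43 (limma adjusted p = 0.00422 to 0.0288 over 863 probes, of which 20.6% passed). In D. virilis they changed by -0.40 to -0.29 (adjusted p = 0.00836 to 0.0429 over 848 probes, of which 36.7% passed). The probes come from 1 fragment and correlated with each other at 0.898 to 0.996 over the 15 D. montana arrays, so they repeat 1 measurement of the transcript. Against p38b on the same array, imd stood at -1.25 ± 0.03 in acclimated D. montana and -0.68 ± 0.11 in controls, and at -1.48 ± 0.19 in acclimated D. virilis and -1.04 ± 0.15 in controls (SD, n = 3 each). Neither pair of groups overlapped. This ratio was not tested either, and the share of other gene ratios that separate these groups was not computed.

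After hardening, imd did not pass the test in either species. Hardened D. montana had 0.42, 0.45 and 0.36, all above the controls at 0.25 to 0.28 (0.15 ± 0.13, limma adjusted p = 0.658). Hardened D. virilis had -0.22, -0.23 and -0.42, all below the controls at -0.12 to 0.11 (-0.26 ± 0.09, adjusted p = 0.273). Groups that did not overlap in these directions were found for 13.6% of the D. montana genes and 10.9% of the D. virilis genes. With spike-in scaling the D. montana change was -0.04, a scaling that moved the median of all genes by -0.19. The difference between the species in this change was 0.41 ± 0.16 (D. montana minus D. virilis, limma interaction, adjusted p = 0.218), and 0.476% of genes passed that test. The share of genes called after hardening was 0.467% in D. montana and 0.474% in D. virilis.

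During recovery imd overlapped the controls at both times. Its levels were 0.37, 0.13 and 0.19 at 1 h and 0.07, 0.46 and 0.12 at 15 min, against 0.25 to 0.28 in controls. The changes were -0.03 ± 0.13 at 1 h (limma adjusted p = 0.916) and -0.04 ± 0.13 at 15 min (adjusted p = 0.83). Over all genes 2.8% passed at 1 h and 6.54% at 15 min.

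**Figure D3:**
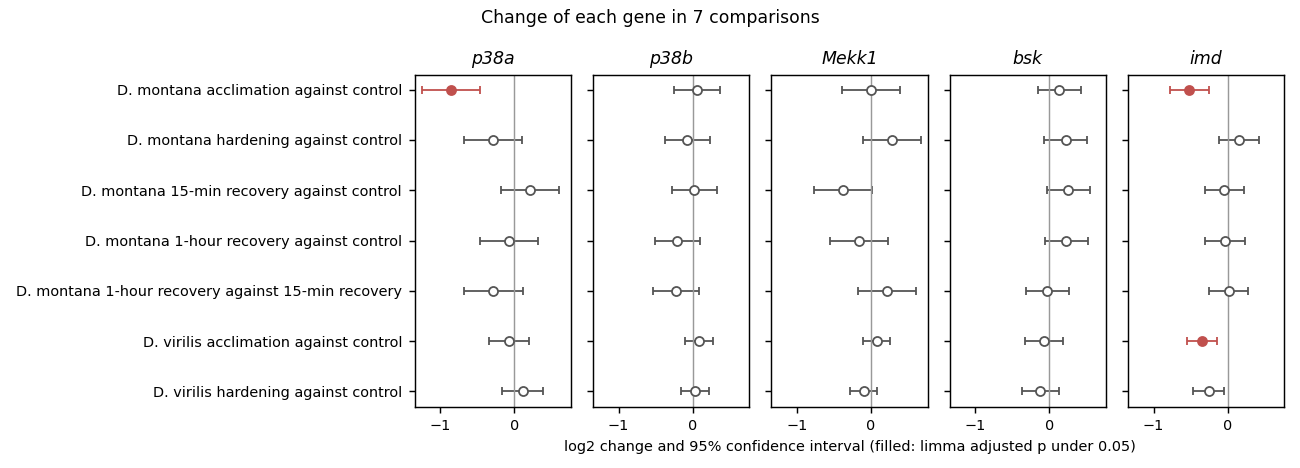
Log2 change of each gene with its 95% confidence interval (horizontal axis) in the 7 comparisons within a species (rows). Filled points passed the threshold: p38a and imd in acclimated D. montana, and imd in acclimated D. virilis.

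Mekk1, the kinase above p38, had levels of -0.92, -1.56 and -1.53 after 15 min of recovery in D. montana, against -0.66, -1.29 and -0.93 in controls. Replicates 2 and 3 of the recovery group lay below all controls, and replicate 1 lay among them. Within slides 1, 2 and 3 the difference was -0.27, -0.63 and -0.24. The change was -0.38 ± 0.18 (95% confidence interval -0.77 to 0.01, limma adjusted p = 0.214). Over 6 fits that each left out 1 array it ran from -0.58 to -0.22 (limma adjusted p = 0.0404 to 0.595). Only 1 of these fits passed, that without recovery replicate 1 (-0.58). The count of all genes called ran from 1 to 29 over the same fits. With normexp correction the Mekk1 change was 0.06. The 3 probes of the second Mekk1 fragment (fragment 3 in the array's naming) changed by -0.56 to -0.49 and the 2 probes of fragment 2 by -0.18 to -0.16, and 0 of the 5 passed singly in limma (adjusted p = 0.163 to 0.518), beside 2.2% of all probes.

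In the other D. montana groups Mekk1 stood at -0.94, -0.88 and -1.06 after acclimation, at -0.54, -0.62 and -0.88 after hardening and at -1.04, -1.01 and -1.30 after 1 h of recovery. All overlapped the controls, which ran from -1.29 to -0.66. The changes were 0.00 ± 0.18 (adjusted p = 0.998), 0.28 ± 0.18 (adjusted p = 0.6) and -0.16 ± 0.18 (adjusted p = 0.672) in that order, by limma. D. virilis arrays were tighter: -0.20, -0.37 and -0.29 after acclimation and -0.47, -0.44 and -0.48 after hardening, against -0.48, -0.34 and -0.28 in controls. Neither change passed (0.08 ± 0.08, adjusted p = 0.49, and -0.10 ± 0.08, adjusted p = 0.662). Averaging both orientations moved the acclimation value in D. virilis to 0.19, just past the threshold (limma adjusted p = 0.0495). In that setting 82 genes passed, beside 83 of 211 genes (39.3%) in the main one.

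The JNK gene bsk had levels of 2.41, 2.27 and 2.38 in acclimated D. montana, 2.55, 2.43 and 2.35 in hardened flies, 2.55, 2.37 and 2.43 after 1 h of recovery, and 2.35, 2.80 and 2.29 after 15 min of recovery. Controls had 2.12, 2.24 and 2.31, the lowest mean of the D. montana groups. The hardened and the 1 h arrays all lay above the controls, as did 13.6% and 15.4% of genes in those comparisons, and the other groups overlapped them. The changes were 0.13 ± 0.14 after acclimation, 0.22 ± 0.14 after hardening, 0.23 ± 0.14 at 1 h and 0.26 ± 0.14 at 15 min, and none passed (limma adjusted p = 0.228 to 0.6). These 4 values share the same control arrays. At 1 h and at 15 min the sign turned with normexp correction (-0.23 at 1 h and -0.0045 at 15 min).

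In D. virilis bsk had 2.45, 2.20 and 2.49 after acclimation and 2.42, 2.46 and 2.11 after hardening, against 2.43, 2.38 and 2.55 in controls. The groups overlapped, with changes of -0.07 ± 0.11 (limma adjusted p = 0.66) and -0.12 ± 0.11 (adjusted p = 0.707). The acclimation change did not pass as different between the species for bsk (D. montana minus D. virilis 0.20 ± 0.18, adjusted p = 0.608), for Mekk1 (-0.08 ± 0.22, adjusted p = 0.878) or for p38b (-0.03 ± 0.17, adjusted p = 0.938). The 4 bsk probes moved together within each comparison, between 0.20 and 0.24 after hardening in D. montana and between -0.15 and -0.11 after hardening in D. virilis.

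**Figure D4:**
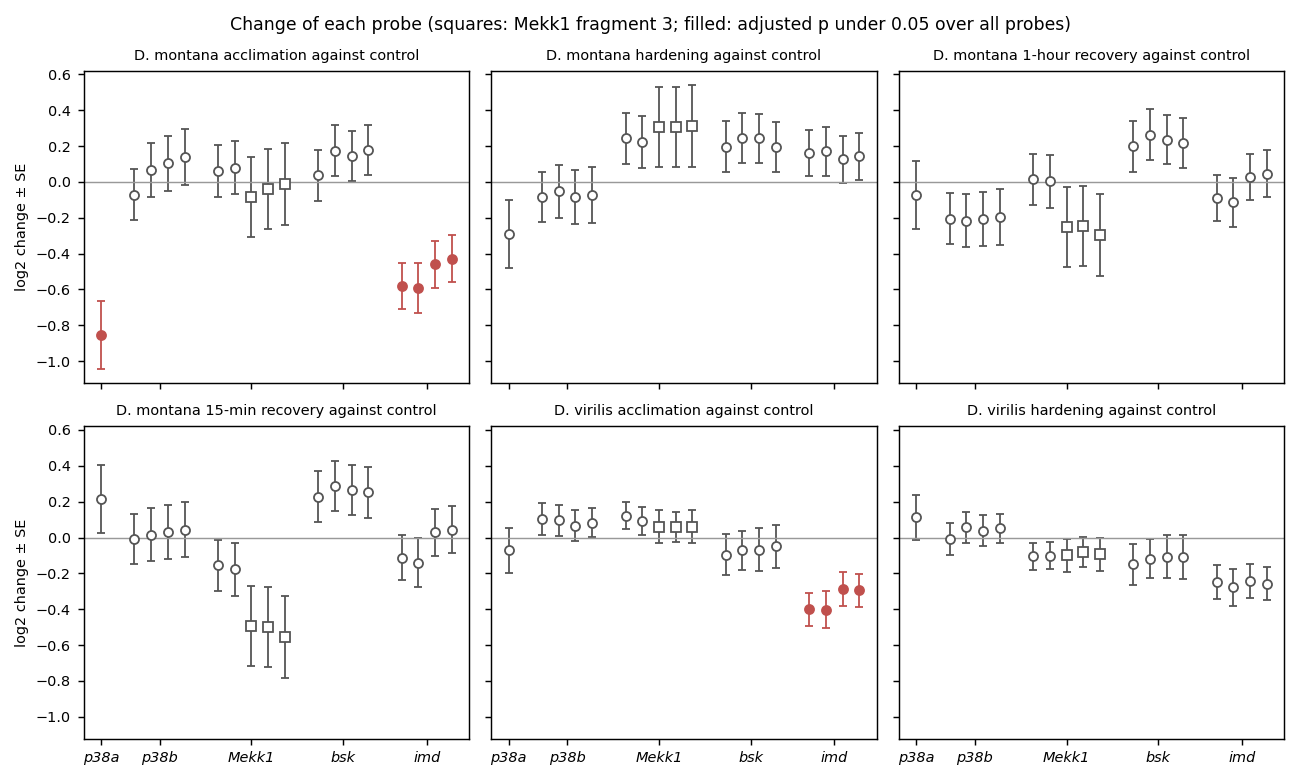
Log2 change ± SE of each of the 18 brighter probes (vertical axis), grouped by gene, in 6 comparisons with controls. Filled points passed the threshold over all probes: the p38a probe and 4 imd probes in acclimated D. montana, and 4 imd probes in acclimated D. virilis. Squares are the 3 probes of Mekk1 fragment 3.

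Between both recovery times no member passed the test, and 1.87% of genes did. At 1 h against 15 min the changes were -0.28 for p38a, -0.23 for p38b, 0.22 for Mekk1, -0.03 for bsk and 0.01 for imd, each with an SE of 0.13 to 0.19, and the groups overlapped for every member.

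Few other genes of these pathways were measured. Of 70 pathway genes listed (kinases between and beside the members, receptors, Relish pathway components, antimicrobial peptides and stress peptides), 1 is on the array: Dsor1, the MAP kinase kinase of the ERK pathway. It did not pass in any comparison, with 0.08 ± 0.18 in acclimated D. montana (limma adjusted p = 0.823) and -0.01 ± 0.10 in acclimated D. virilis (adjusted p = 0.931).

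Of 39 other protein kinase names listed, some of them synonyms, 11 are on the array. In acclimated D. montana 0 passed as higher and 1 as lower, Caki (-0.47 ± 0.13, limma adjusted p = 0.0187), a scaffold kinase of synapses, beside 16.8% of all genes. The median change of the 11 was -0.13, beside 0.00 for all genes. In acclimated D. virilis 0 were higher and 5 lower, where 24.6% of all genes were lower: Caki (-0.62), mnb (-0.66), a kinase of the DYRK family, CaMKII (-0.37), the calcium and calmodulin-dependent kinase, dco (-0.32), the clock kinase doubletime, and sgg (-0.26), the GSK-3 kinase shaggy. Their median was -0.17, beside -0.06 for all genes. At 15 min of recovery, where 6.54% of all genes passed, 0 were higher and 2 lower, the insulin receptor InR (-0.76 ± 0.18, adjusted p = 0.0246) and mnb (-0.83 ± 0.16, adjusted p = 0.00841), with a median of -0.34 beside 0.01. None of the 11 passed at 1 h or after hardening in either species. The list does not hold every kinase on the array. Btk29A, outside it, was lower after acclimation in D. montana (-0.41 ± 0.14, limma adjusted p = 0.0438) and in D. virilis (-0.45 ± 0.08, adjusted p = 0.00161). Cdk9, also outside it, did not pass after acclimation in D. montana (adjusted p = 0.492) or in D. virilis (adjusted p = 0.977).

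Few tissue markers passed in acclimated D. montana: 0 of 2 for muscle, 1 of 10 for the eye (Arr2, lower) and 1 of 3 for nerve (cac, lower), where 26.6% of all genes passed. The log2 of the muscle markers' summed signal, relative to the array's 75th percentile, was 6.80 to 7.17 in acclimated D. montana and 6.70 to 6.84 in controls, that of the eye markers 6.58 to 6.81 and 6.48 to 6.97, and that of the nerve markers -2.56 to -1.86 and -1.88 to -1.65. In acclimated D. virilis 1 of 2 muscle markers (Mhc) and 2 of 10 eye markers (Rh3 and Rh4) rose and 1 of 2 nerve markers tested (cac) fell, where 39.3% of all genes passed. There the sums were 6.34 to 6.67 in acclimated flies and 5.77 to 6.11 in controls for muscle, 7.05 to 7.26 and 6.74 to 7.02 for eye, and -4.02 to -3.81 and -3.86 to -3.27 for nerve. The part of tissue makeup in the changes of p38a and imd was not tested.

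The genes whose levels were most like each member's were found by Pearson's r over the 15 D. montana arrays, which share the group structure and the scaling, and r is given as a description. For p38a these were cry (0.94), the light receptor cryptochrome, CG17928 (0.92) and Treh (0.92), trehalase. Their acclimation changes in D. montana were -0.83, -0.68 and -0.94, a description only, since the same arrays chose these genes. Over the 9 D. virilis arrays their r with p38a was 0.49, 0.61 and 0.53. There all 3 fell after acclimation, by 0.52, 0.46 and 0.57 (limma adjusted p = 0.00153, 0.00226 and 0.000621), while p38a did not pass. In that comparison 24.6% of all genes passed as lower.

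For imd the nearest were Rev1 (0.88), a DNA polymerase of damage bypass, hang (0.87), a zinc finger protein, and ix (0.83), a subunit of Mediator. Their acclimation changes in D. montana, where they were chosen, were -0.65, -0.70 and -0.30. In acclimated D. virilis, where 24.6% of all genes passed as lower, Rev1 fell by 0.35 (limma adjusted p = 0.0158). There hang (-0.16, adjusted p = 0.515) and ix (-0.17, adjusted p = 0.193) did not pass. Over the 9 D. virilis arrays, which did not enter the ranking, r with imd was 0.95 for Rev1, 0.69 for hang and 0.79 for ix. For Mekk1 they were Hsc70Cb (0.90), a chaperone of the Hsp110 kind, InR (0.89) and lark (0.85), an RNA-binding protein, with 0.42, 0.32 and -0.53 in D. virilis. For bsk they were G-salpha60A (0.92), a stimulatory G protein subunit, Cdk9 (0.83), a kinase of transcription elongation, and CaMKII (0.76), with 0.71, 0.15 and 0.51 in D. virilis. For p38b they were CdsA (0.69), a CDP-diacylglycerol synthase, CG7650 (0.67) and Pi3K92E (0.65), a catalytic subunit of PI 3-kinase, with 0.53, -0.06 and 0.41 in D. virilis. Among the members themselves p38a and imd had the highest r in D. montana (0.58), with 0.13 in D. virilis. The r of p38a and p38b was -0.21 in D. montana and -0.71 in D. virilis.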

How the data were processed

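The authors deposited intensity values for each spot, read from the scans (per the file headers, by Feature Extraction 10.7.1.1), with background subtracted in the processed signal and no scaling between arrays. The labels give 600 ng of RNA per pool, labelled with Cy3 (1 colour). A table of intensity values on a linear scale was deposited too. How it was scaled is not given in these sources, its column medians ran from 69.4 to 72.7, and it served as an alternative only. Per the labels' protocols, each replicate was a pool of its own.

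Of 1850 probes with 8 spots each, outlier-flagged spots (87 to 261 per array) were left out, no spot was saturated, log2 processed signals were averaged per probe, and the 75th percentile of an array's probes was subtracted. Brighter-orientation probes above background on all 3 arrays of some group were kept and averaged per gene, giving 214 genes for D. montana, 211 for D. virilis and 210 for differences between species. All 18 member probes passed. Genes were named from the probe names. The limma package (3.58.1, R 4.3.3) was used for lmFit and eBayes, over 15, 9 or 24 arrays, without a block. Single probes were tested the same way. The procedure for genes was also run on simulated data, with independent normal noise for each gene and array. Those data held no slide, scaling or background effects, so they cannot judge how such effects move the calls.

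The alternatives were spike-in scaling (8 spike-in probes), quantile normalization, normexp background correction (offset 50, on the median signals, the spot signals used here), the authors' table, a stricter and no filter, both orientations averaged, the median over probes, slide or replicate number as a block, array weights, values within a slide and leaving out each array. The files' slides follow the replicate numbers except for the D. montana controls, whose replicates 2 and 3 lay on slides 3 and 2. On average same-numbered arrays hardly deviated together, so the numbers were not used as pairs. The mean correlation was 0.05 in D. montana (-0.43 to 0.52 over 30 array pairs) and 0.04 in D. virilis (-0.25 to 0.42 over 9). By slide it was 0.07 in D. montana and 0.04 in D. virilis. The members and the gene lists were chosen with earlier results of these data known. Beside the members, genes named are those of the lists that passed the threshold and, for each member, the 3 genes with the highest Pearson correlation over the D. montana arrays. Dsor1 is named as the sole measured gene of its list, and Btk29A as a kinase outside the kinase list.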

Additional observations from a re-analysis of the deposited data

Results flagged for a closer look

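The acclimation change of p38a differed between the species in a test of the difference itself: D. montana minus D. virilis was -0.78 ± 0.24 (limma interaction, adjusted p = 0.0315), a test that 12.4% of genes passed. The call was lost without any of 7 of 12 single arrays, with spike-in scaling (adjusted p = 0.269) and with normexp correction (adjusted p = 0.862). The p38a level was lower in 3 of 3 acclimated D. montana arrays than in every D. montana control, and in acclimated D. virilis 2 of 3 arrays lay below every control and 1 above.

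For imd 3 of 3 hardened D. montana arrays lay above every control and 3 of 3 hardened D. virilis arrays below every control, as for 13.6% and 10.9% of genes in those directions. Neither change passed (limma adjusted p = 0.658 and 0.273), and the D. montana change was -0.04 with spike-in scaling. D. montana minus D. virilis was 0.41 ± 0.16, and the test of this difference did not pass (limma interaction, adjusted p = 0.218). The within-slide differences were 0.25, 0.34 and 0.62.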

How the results depend on the processing

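Of 825 tested alternatives of the members' values, 806 kept their side of the threshold, 16 lost a call and 3 gained one, and no called value changed sign. Values that had not passed could not lose a call, so the 16 losses fell on the called values. The acclimation call of p38a in D. montana was lost in 1 setting and kept in 16. That of imd was lost in 2 and kept in 15 in D. montana, and lost in 4 and kept in 13 in D. virilis. The species difference of p38a in acclimation was lost in 9 and kept in 14. Under the 4 other scalings, 11 of the 35 member values within a species turned sign at least once, and the 3 that passed the threshold did not. The slide or the replicate block changed no call of a member. With array weights the hardening difference of imd between species was 0.38 and passed (limma adjusted p = 0.0401).

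Counts of genes called by limma under the alternatives that moved them by over 1.5 times, and the range without single arrays whether or not it moved as far, were as follows. The cause was not tested. For D. montana acclimation (57) they were 27 with spike-in scaling, 11 with normexp, 95 with array weights and 34 to 45 without single arrays. For D. montana hardening (1) they were 0, 10 and 0 to 2 with normexp, array weights and without single arrays. For 15 min of recovery (14) they were 5 with spike-in scaling, 1 with normexp, 30 with slide as a block, 27 with the replicate block, 33 with array weights and 1 to 29 without single arrays. For 1 h of recovery (6) they were 2 with normexp, 14 with slide as a block, 14 with the replicate block, 18 with array weights and 6 to 7 without single arrays. For 1 h against 15 min (4) the count was 1 with normexp and 4 to 5 without single arrays. For D. virilis acclimation (83) they were 39 with spike-in scaling, 16 with normexp and 58 to 95 without single arrays. For D. virilis hardening (1) they were 4 with spike-in scaling, 2 with quantile normalization and with the authors' table, 0 with normexp and with both orientations, 4 with slide as a block, 4 with the replicate block, 12 with array weights and 0 to 7 without single arrays. For the species difference in acclimation (26) they were 5 with spike-in scaling, 0 with normexp, 17 with both orientations, 57 with array weights and 15 to 28 without single arrays. For that in hardening (1) they were 2 with spike-in scaling, quantile normalization and the authors' table, 0 with normexp and with both orientations, 24 with array weights and 0 to 3 without single arrays. Normexp called 0 genes after hardening in either species, against 1 in each species with the processed signal. At an unadjusted p under 0.05, limma on the processed signal had 15 genes (D. montana) and 22 (D. virilis). The unadjusted counts with normexp are not given here.

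With spike-in scaling the share of called genes that were higher was 51.9% against 36.8% in acclimated D. montana, 61.5% against 37.3% in acclimated D. virilis, 0% against 35.7% at 15 min of recovery and 60% against 34.6% for the species difference in acclimation. That scaling moved the median of all genes by -0.19 after hardening, -0.12 at 15 min and -0.16 at 1 h in D. montana, and by -0.25 for the species difference in hardening.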
